A study of Mus musculus with 15 samples.

Results

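Blood-rich pixels are the pixels of a mouse embryo section in which transcripts of the globin genes took the highest share of all counts. In each of 11 transcript libraries, pixels with a total count of at least 0.1 of the library's 95th percentile were kept as tissue. The 10% of tissue pixels with the highest summed Hba-x, Hbb-bh1, Hbb-y, Hba-a1, Hba-a2, Hbb-bs and Hbb-bt per 10000 counts were then chosen as blood-rich, so the members were chosen by their globin counts alone. This rule gave 1699 blood-rich pixels among 17046 tissue pixels (18643 pixels in all), with 82 to 227 in a library. A pixel is the crossing of 2 barcode channels, so it is a small region that can hold several cells or a part of 1 cell.

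The libraries were made from frozen mouse embryo sections of embryonic day 10, 11 or 12 (E10, E11 and E12), barcoded in place through microfluidic channels 10, 25 or 50 µm wide. There were 3 libraries at E10 with 50 µm pixels, 1 at E10 with 25 µm, 2 at E10 with 10 µm, 2 at E11 with 25 µm, 2 at E11 with 10 µm and 1 at E12 with 50 µm, and 4 of the E10 sections also had counts of 22 antibody tags. No treatment, strain, sex or genotype is given in the labels, nor which embryo or which region a section came from. P-values below therefore measure the spread between these libraries, and stage cannot be told apart from section plane or embryo. Pixel width was only partly matched between stages, and the test of stage had no term for it.

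Mammalian red cells first arise in the yolk sac as large nucleated primitive cells that circulate in the embryo and carry embryonic globins. Definitive red cells, which carry adult globins, are made later in the fetal liver around macrophages, and leave it for the circulation. Both lineages build haemoglobin from alpha-type and beta-type globin chains and haem, and lay down a membrane skeleton of spectrin and ankyrin that is tied to the band 3 anion exchanger, under the control of transcription factors such as Gata1, Klf1 and Tal1. In a section, red cells lie inside vessels and heart chambers or in the liver, so that a pixel rich in globin transcripts can also hold the cells of the wall around the blood.

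Because genes of the red cell programme moved together in the tests below, the sequence just before the start of some of them is shown first. The capitals mark the motifs AGATAA and TGATAA, read on both strands, which are the sequence that GATA factors are known to bind. The genes shown are those for the first enzyme of red cell haem synthesis (Alas2), the Rh proteins (Rhd and Rhag), the blood group proteins Kel and Ermap, and, from the globins that chose the pixels, the embryonic zeta globin Hba-x. All of them hold the motif in the bases shown, so they do not stand for the other red cell genes or globins. Each line holds the 120 bases before the RefSeq transcript start, in the direction of the gene, on build GRCm38.p6. They lie at chrX:150547297-150547416, plus strand (Alas2), chr4:134864416-134864535, plus strand (Rhd), chr17:40811029-40811148, plus strand (Rhag), chr6:41704326-41704445, minus strand (Kel), chr4:119189996-119190115, minus strand (Ermap) and chr11:32276480-32276599, plus strand (Hba-x).
Alas2: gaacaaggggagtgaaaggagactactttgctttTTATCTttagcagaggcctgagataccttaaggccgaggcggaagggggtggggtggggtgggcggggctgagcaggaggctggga
Rhd: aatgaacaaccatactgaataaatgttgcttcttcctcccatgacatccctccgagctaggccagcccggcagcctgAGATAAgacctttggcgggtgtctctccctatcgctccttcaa
Rhag: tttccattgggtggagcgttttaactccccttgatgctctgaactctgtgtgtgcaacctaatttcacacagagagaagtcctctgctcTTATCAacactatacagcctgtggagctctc
Kel: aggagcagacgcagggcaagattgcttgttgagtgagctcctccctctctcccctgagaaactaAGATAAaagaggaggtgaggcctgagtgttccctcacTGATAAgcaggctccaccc
Ermap: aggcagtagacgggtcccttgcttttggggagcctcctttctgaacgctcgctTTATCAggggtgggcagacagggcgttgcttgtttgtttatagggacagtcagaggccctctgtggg
Hba-x: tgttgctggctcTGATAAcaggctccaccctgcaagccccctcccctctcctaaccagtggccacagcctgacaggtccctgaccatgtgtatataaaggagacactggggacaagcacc

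The motif was counted in the 250 bases before the start of every gene with an entry in the RefSeq table. Of the 15 genes with the largest rises in blood-rich pixels, 10 had an entry, and 8 of these 10 (80.0%) held AGATAA or TGATAA on either strand. It was present in 14 of 29 called red cell genes with an entry (48.3%), in 2 of 9 genes with the largest drops, and in 5 of 6 globins with an entry. Among all 32851 promoters of the table the share was 16.6%, and among the 7457 tested genes with an entry it was 10.3%. The motif CCNCNCCC, a form of the CACCC sequence that Klf1 is known to bind, was in 4 of the 10 largest rises and in 18 of the 29 called red cell genes (62.1%), also counted on both strands. It was in 9 of the 9 largest drops, 70.5% of the tested genes and 45.9% of all promoters, so its share in the largest rises was below that in the tested genes. A match is a description of these letters and says nothing of binding.

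The globin values that selected the pixels are given as a description, with no test. The median globin count per 10000 in blood-rich pixels ran from 518 to 1464 in the E10 and E11 libraries and was 2955 at E12. In the other tissue pixels it ran from 35.6 to 213 at E10 and E11 and was 519.9 at E12, so globin transcripts were present outside the chosen pixels in every library. The blood-rich pixels held 26.7 to 63.4% of the globin counts in tissue. At the threshold, the lowest blood-rich pixel and the highest other pixel of E10 50 µm replicate 1 had 612 and 602 globin counts per 10000. In E11 10 µm replicate 1 these pixels had 557 and 557.0. Members just inside the threshold thus had nearly the same globin share as the pixels just outside it.

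The make-up of the globins in blood-rich pixels was close among the E10 and E11 libraries and different at E12. The embryonic beta-type globin Hbb-y took 31.9 to 37.6% of the globin counts in the 6 E10 libraries, 36.6 to 41.8% in the 4 E11 libraries and 15.2% at E12. Hbb-bh1, the other embryonic beta-type globin, took 6.37 to 12.4% at E10, 5.22 to 8.82% at E11 and 0.222% at E12. Hba-x took 18.2 to 21.7%, 13.7 to 18.8% and 2.33%. The embryonic genes were thus lowest in the 1 library at E12, most of all Hbb-bh1. The adult beta globins Hbb-bs and Hbb-bt together made up 2.84 to 5.04% of the beta-type counts at E10, 2.96 to 3.73% at E11 and 58.7% at E12. The adult alpha globins Hba-a1 and Hba-a2 were already the larger part of the alpha-type counts at E10, where Hba-x made up 31.9 to 43.2% of them. In the other tissue pixels the adult beta share was 3.55 to 5.51% at E10, 2.82 to 5.06% at E11 and 47.3% at E12, so the globin make-up of the E12 library differed from the others in both pixel classes. Hba-a1 and Hba-a2, and Hbb-bs and Hbb-bt, are near-identical copies, and how the counting shared reads between them is not given in the sources used here, so only their sums are used.

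**Figure D1:**
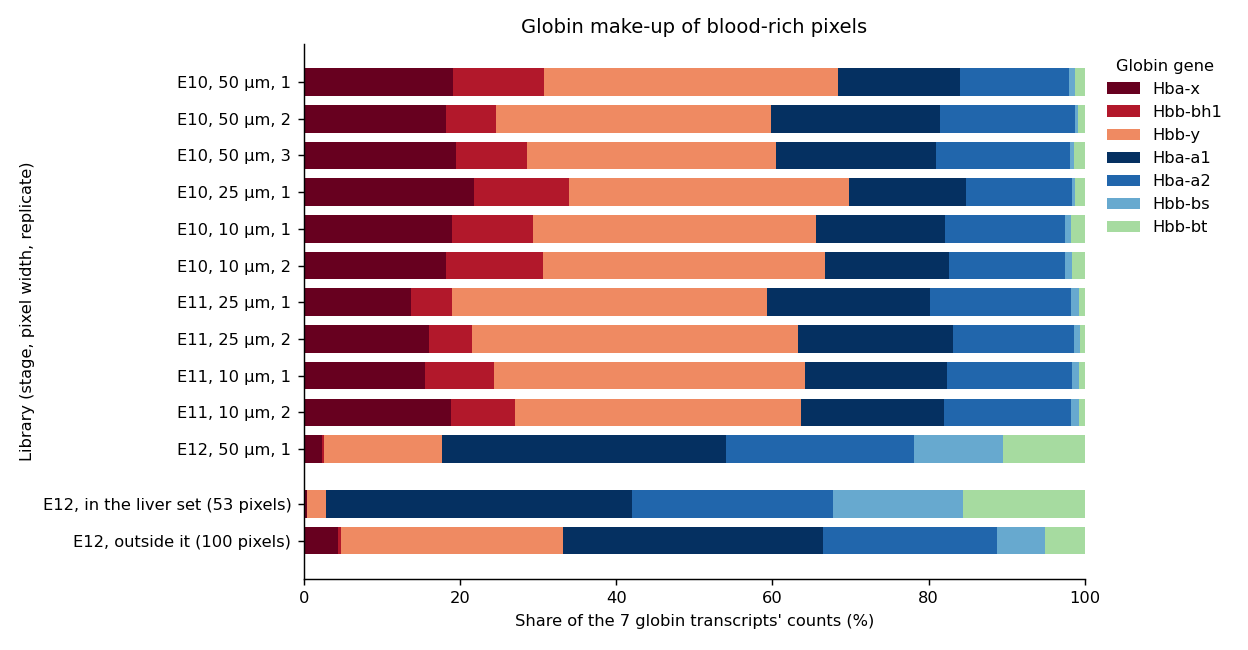
Share of the 7 globin genes' counts (%, horizontal axis, 0 to 100) in the blood-rich pixels of each of the 11 libraries (bars, named by stage, pixel width and replicate), with the blood-rich pixels of E12 inside and outside its liver set below. Reds are embryonic and blues and green adult genes: Hbb-y took 31.9 to 37.6% at E10 and 15.2% at E12, and the band of the adult beta genes Hbb-bs and Hbb-bt is widest at E12, most of all in the liver set.

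At E12 the blood-rich pixels inside and outside a set of pixels high in liver transcripts differed in globin make-up. Liver pixels were taken as the 10% of tissue pixels with the highest summed level of 12 liver genes such as Afp and Alb per non-globin count, and 53 of 153 blood-rich pixels were among them. This liver set has a fixed size, so a pixel outside it can still hold liver transcripts or lie in the liver. The comparison was chosen after its values were seen, rests on 1 library and has no test. Intervals cover counting error only, and reads without stated molecular identifiers are not independent molecules. In the 53 blood-rich liver pixels the adult beta globins made up 93.0% of the beta-type counts (95% Wilson interval 92.7 to 93.3%). In the 100 blood-rich pixels outside the liver set they made up 28.0% (27.6 to 28.5%). Blood-rich pixels outside the liver set thus carried mostly embryonic beta globins at E12, and those in the set carried mostly adult ones. Hba-x made up 0.552% of the alpha-type counts inside the liver set and 7.28% outside it. Liver pixels that were not blood-rich had an adult beta share of 87.4%, and tissue pixels in neither class had 36.5%, so the adult share was high in liver pixels whether or not they were blood-rich. No such contrast was seen at E11 25 µm, where the adult beta share inside and outside the liver set was 2.42 and 3.99% in replicate 1 (16 and 154 pixels) and 3.77 and 2.81% in replicate 2 (22 and 128 pixels).

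Within the E12 library, the blood-rich pixels inside and outside the liver set also differed in red cell genes other than globins, and liver pixels that were not blood-rich had high levels of the same genes. Levels here are counts scaled to 1000000 non-globin counts (CPM). Klf1, a transcription factor that switches on adult beta globin, had 222 CPM (95% interval 167 to 289.5) in blood-rich liver pixels. It had 42.1 CPM (95% interval 18.2 to 83.0) in blood-rich pixels outside the liver set. Gata1, the central red cell transcription factor, had 131 CPM (95% interval 89.9 to 186) and 21.1 CPM (95% interval 5.74 to 53.9). The intervals of both genes did not overlap between the 2 groups of pixels. The transferrin receptor Tfrc, which takes up iron, had 1718 CPM (95% interval 1557 to 1890.3) and 332 CPM (95% interval 255 to 424). Mki67, which marks cycling cells, had 2371 CPM (95% interval 2181 to 2572) and 785 CPM (95% interval 664 to 921). Liver pixels that were not blood-rich had 157 CPM (95% interval 126 to 194) for Klf1, 125 CPM (95% interval 96.9 to 158) for Gata1, 964 CPM (95% interval 884 to 1049.6) for Tfrc and 1474 CPM (95% interval 1374 to 1578) for Mki67. These levels lay above those of blood-rich pixels outside the liver set, and for Klf1 and Gata1 the interval overlapped that of the blood-rich liver pixels. Alas2 differed less between the blood-rich pixels in and outside the liver set, with 789 CPM (95% interval 681 to 909) and 553 CPM (95% interval 452 to 669). It was at 352 CPM (95% interval 304 to 405) in the other liver pixels. The stem and progenitor gene Kit was at 41.1 CPM (95% interval 19.7 to 75.6) and 42.1 CPM (95% interval 18.2 to 83.0), with intervals that overlap. In all of these sums, more cells of a type and more RNA per cell cannot be told apart.

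Blood-rich pixels lay in patches. Of the tissue pixels that share a side with a blood-rich pixel on the grid, 37.3 to 61.0% were blood-rich in the 11 libraries, against 4.01 to 6.98% beside other tissue pixels. Blood-rich pixels with no blood-rich neighbour made up 6.61% (E10 10 µm replicate 2) to 26% (E11 25 µm replicate 2). The members were spread over 22 to 47 rows and 28 to 48 columns of the grid, with at most 25 in 1 row and 17 in 1 column.

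Depth differed between the pixel classes. Total counts in tissue pixels were 1563489 (E10 25 µm) to 11998765 (E10 10 µm replicate 1), and the non-globin counts of the blood-rich pixels were 120095 to 881389. The median non-globin count of a blood-rich pixel was 0.464 to 0.866 times that of another tissue pixel, lower in 11 of 11 libraries. The total count is the denominator of the rule, so this ratio is given as a description. With members picked within 4 depth classes of each library instead, the test below of blood-rich against other tissue pixels called 1026 genes in place of 1188. At a fixed depth of 500 non-globin counts, a blood-rich pixel held 409 ± 15.2 genes (mean of library medians ± SD, n = 11) and another tissue pixel 415 ± 13.7. This difference of -5.91 genes had the same sign in 11 of 11 libraries (two-sided exact permutation test by sign flips, p = 0.000977, the smallest it can give, and 0.00293 adjusted over 3 measures). The share of mitochondrially encoded transcripts was 2.29 ± 1.12% against 1.97 ± 0.882%, higher in 9 of 11 libraries (the same exact permutation test, p = 0.00781, adjusted p = 0.00781). The share of cytosolic ribosomal protein transcripts was 13.6 ± 2.37% against 13.2 ± 2.46%, higher in 10 of 11 (the same exact permutation test, p = 0.00488, adjusted p = 0.00732). The SDs of the differences within libraries were 3.06 genes, 0.295 and 0.267 percentage points, against mean differences of -5.91, 0.323 and 0.350.

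Which other genes marked the blood-rich pixels was tested on counts summed per library over blood-rich pixels and over other tissue pixels, with every globin gene left out. Most of the largest rises were in red cell genes. Genes of the vessel wall, megakaryocytes and macrophages were higher too, and neural genes were lower. With the quasi-likelihood test of edgeR, library as a term and Benjamini-Hochberg adjustment over 10391 genes, 645 genes were higher (6.21% of those tested) and 543 were lower (5.23%) at an adjusted p under 0.05. These 1188 calls were 11.4% of the genes tested, and the median log2 fold change over all tested genes was -0.0136. The rule used the total count as its denominator, so the pixels compared also differ in depth, as given above. Of the 15 genes with the largest rises, 12 belonged to the 4 red cell lists. Each of the 15 was higher in 11 of 11 libraries, which the rule for naming them required. For 7 of the 106 genes that the naming rule chose, all of them called, the lowest blood-rich library lay above the highest other one. Among the 7 were Epb42, Slc4a1, Hemgn, Sptb, Alas2 and Cpox. This was not counted over all 10391 genes tested, so how unusual it is was not tested. The globin rule that chose the pixels used none of these genes.

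Genes of the red cell membrane and its skeleton had the highest median of the lists. In this list 14 of 17 tested genes were higher, 0 were lower, and the median log2 fold change was 2.93. Slc4a1 had a lowest, median and highest level of 250.5, 406 and 1454 CPM in blood-rich pixels and of 17.5, 49.0 and 207 CPM in other tissue pixels, over the 11 libraries. This gene encodes the band 3 anion exchanger, and its 8.59-fold rise (log2 fold change 3.10 ± 0.274 (SE), adjusted p = 2.22e-05 by edgeR) left no overlap between the classes. Sptb had a lowest, median and highest level of 72.3, 117 and 270.0 CPM in blood-rich pixels and of 6.96, 15.9 and 54.5 CPM in other tissue pixels, again with no overlap. Sptb encodes a spectrin of the skeleton and rose 7.92-fold (log2 fold change 2.98 ± 0.153 (SE), adjusted p = 1.87e-13 by edgeR). Epb42 had a lowest, median and highest level of 24.6, 47.0 and 134 CPM in blood-rich pixels and of 0.426, 4.37 and 19.1 CPM in other tissue pixels. It encodes protein 4.2, which ties band 3 to the skeleton, and rose 9.81-fold (log2 fold change 3.29 ± 0.297 (SE), adjusted p = 5.48e-07 by edgeR). In the E10 25 µm library the Epb42 level was 33.3 against 19.1 CPM, the smallest ratio of the 11, from 4 counts in blood-rich pixels. The ankyrin gene Ank1 rose 6.60-fold and was higher in 11 of 11 libraries.

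The blood group genes of the same list moved with the skeleton genes. The fold changes were 10.4 for Rhd, 9.86 for Rhag, 8.22 for Kel, 7.61 for Ermap and 6.90 for Icam4, each higher in 11 of 11 libraries, with edgeR adjusted p from 5.5e-18 (Ermap) to 2.66e-10 (Rhd). Their levels in other tissue pixels reached those in the blood-rich pixels of other libraries, so that the classes overlapped across libraries while every library kept the same order. Smaller rises were called for Dmtn (log2 fold change 1.81), Tmod1 (1.15) and Gypc (0.98). Epb41 (log2 fold change 0.38, adjusted p = 0.219), Add2 (0.98, 0.0535) and the glucose transporter Slc2a1 (0.37, 0.273) did not pass edgeR's test. Add2 was higher in 10 of 11 libraries.

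**Figure D2:**
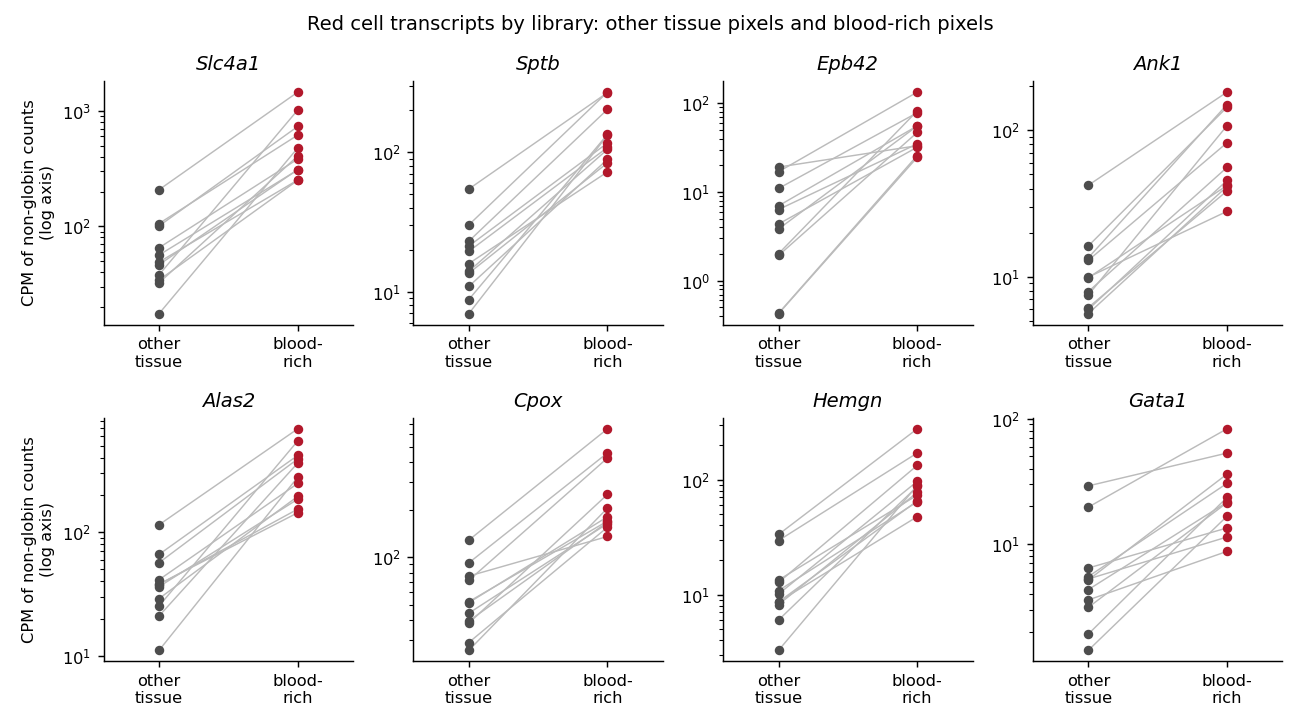
CPM of non-globin counts (log axis) of 8 red cell genes in other tissue pixels (grey) and blood-rich pixels (red) of each library, with a line joining the 2 values of a library, 11 lines a panel. Every line rises, and in Slc4a1, Sptb, Epb42, Alas2, Cpox and Hemgn the lowest red point lies above the highest grey one.

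Genes of haem synthesis and iron uptake were higher at nearly every step tested. Of 13 tested genes 12 were higher and 0 lower, with a median log2 fold change of 1.27. Alas2 had a lowest, median and highest level of 144, 279 and 685 CPM in blood-rich pixels and of 11.1, 37.7 and 115 CPM in other tissue pixels, with no overlap (log2 fold change 2.94 ± 0.288 (SE), adjusted p = 5.33e-05 by edgeR). Alas2 is the red cell form of the first enzyme of the pathway, and the form used in all tissues, Alas1, did not pass the test (log2 fold change -0.31, edgeR adjusted p = 0.413). The middle enzymes Alad, Uros and Urod rose 2.40, 2.40 and 2.18-fold. Cpox had a lowest, median and highest level of 135, 180.4 and 651 CPM in blood-rich pixels and of 25.7, 51.6 and 128 CPM in other tissue pixels. Cpox, which oxidises coproporphyrinogen in mitochondria, rose 4.6-fold with no overlap between classes. Ppox, the next enzyme, rose less (log2 fold change 0.86, edgeR adjusted p = 0.0359, higher in 8 of 11 libraries), and its call was lost without any 1 of 6 libraries. Fech, which inserts the iron, rose 4.25-fold. The mitochondrial iron importer Slc25a37 rose 5.14-fold, the transporter Abcb10 3.78-fold, Slc25a38 1.6-fold and Tfrc 2.40-fold. Slc11a2, another iron transporter, did not pass the test (log2 fold change 0.34, edgeR adjusted p = 0.315).

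Among red cell transcription factors and their receptor, 8 of 9 tested genes were higher and 0 lower, with a median log2 fold change of 1.99. Hemgn had a lowest, median and highest level of 47.7, 87.3 and 277 CPM in blood-rich pixels and of 3.27, 10.1 and 33.3 CPM in other tissue pixels. Hemgn, a nuclear protein of red cell precursors, rose 8.36-fold with no overlap (log2 fold change 3.06 ± 0.164 (SE), adjusted p = 1.17e-14 by edgeR). Gata1 had a lowest, median and highest level of 8.73, 21.6 and 83.1 CPM in blood-rich pixels and of 1.42, 5.16 and 29.1 CPM in other tissue pixels. Gata1 was higher in 11 of 11 libraries (log2 fold change 2.11 ± 0.228 (SE), adjusted p = 9.75e-09 by edgeR), though its level in some libraries' other tissue pixels was above that of other libraries' blood-rich pixels. Klf1 rose 3.91-fold, Tal1 3.97-fold, Nfe2 6.13-fold and the erythropoietin receptor Epor 5.73-fold, each higher in 11 of 11 libraries. Zfpm1, a partner of Gata1, rose 2.36-fold and Lmo2 2.09-fold. The adaptor Ldb1 did not pass the test (log2 fold change -0.14, edgeR adjusted p = 0.444).

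Of the red cell enzymes and chaperones, 7 of 8 tested genes were higher and 0 lower (median log2 fold change 1.30). Car2 had a lowest, median and highest level of 280.2, 414 and 2079 CPM in blood-rich pixels and of 31.3, 60.7 and 319 CPM in other tissue pixels. Car2, a carbonic anhydrase of red cells, rose 7.38-fold (log2 fold change 2.88 ± 0.139 (SE), adjusted p = 3.4e-08 by edgeR). Blvrb, a flavin and biliverdin reductase, rose 5.30-fold, and Pklr, the red cell and liver pyruvate kinase, 5.49-fold. Hebp1, a haem-binding protein, rose 3.28-fold and Bpgm, which makes the phosphate that tunes oxygen release, 1.85-fold. The peroxide-removing enzymes Prdx2 and Cat rose only 1.35 and 1.27-fold. Over the 4 red cell lists, 41 of 47 tested genes were higher, against 6.21% of all genes tested. The filter on low counts could pass a gene on its blood-rich sums alone, which favours genes high there, so this share is a description. In the neighbour test below, which has no blood-rich sums, 6 transcription factor genes passed the filter in place of 9. For the membrane list it was 15 in place of 17, and for the enzyme list 6 in place of 8. Of these 41, 33 were higher in every library, which was not counted over all genes tested.

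Markers of other blood cells were also higher. All 5 tested megakaryocyte and platelet genes rose (median log2 fold change 1.29), against 6.21% of all genes tested. The largest was Itga2b, the platelet integrin also called CD41, at 4.28, 26.2 and 94.0 CPM against 3.18, 8.50 and 93.3 CPM (log2 fold change 1.57 ± 0.221 (SE), adjusted p = 6.65e-06 by edgeR, higher in 10 of 11 libraries). Pf4, a platelet chemokine, rose 2.56-fold, and Itgb3, Gp1bb and Plek rose 2.11, 1.98 and 2.44-fold. The summed level of the 12 genes was higher in blood-rich pixels of 10 libraries and lower in E11 10 µm replicate 2, where it was 938 against 1007 CPM. All 6 tested macrophage and leukocyte genes were higher (median 0.93), among them Csf1r (log2 fold change 0.93), Mrc1 (1.01) and Lyz2 (1.12). Each macrophage gene was higher in 8 or 9 of 11 libraries, and the summed list was lower in blood-rich pixels of E10 10 µm replicate 1 and E11 10 µm replicate 2. Fcer1g and Tyrobp were at the threshold (adjusted p = 0.0445 and 0.0451 by edgeR) and lost their calls without any 1 of 6 libraries (Fcer1g) or any 1 of 7 (Tyrobp). With limma on means of pixel CPM, in which every pixel counts alike, 0 of the 6 macrophage genes were called and Fcer1g had the opposite sign. By the same limma test the megakaryocyte genes Itgb3, Gp1bb and Plek kept their sign and lost their calls. Of 7 blood progenitor genes only Cd34, which endothelium also carries, was called (log2 fold change 1.03 ± 0.135 (SE), adjusted p = 4.75e-07 by edgeR). Kit (0.34, adjusted p = 0.269), Runx1 (0.22, 0.675) and Myb (0.0204, 0.988) did not pass edgeR's test.

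Genes of the endothelium, the inner wall of vessels, were higher as a group. All 13 tested endothelial genes were higher, with a median log2 fold change of 1.07 and a range of 0.80 to 1.38. Cdh5 had a lowest, median and highest level of 58.3, 87.8 and 241 CPM in blood-rich pixels and of 21.1, 40.3 and 69.3 CPM in other tissue pixels. Cdh5, the cadherin of endothelial junctions, rose 2.60-fold (log2 fold change 1.38 ± 0.135 (SE), adjusted p = 1.33e-08 by edgeR, higher in 11 of 11 libraries). The receptors for vascular growth factor Flt1 and Kdr rose 2.20 and 2.21-fold, the sialomucin Emcn 2.58-fold, and Pecam1 2.14-fold. The summed list was 1.17 to 3.0 times as high in blood-rich as in other tissue pixels, with the smallest ratio at E12 (501 against 429 CPM). The 3 tested endocardium genes, which mark the inner lining of the heart, rose as well: Plxnd1 2.12-fold, Hapln1 1.99-fold and Npr3 1.88-fold. The Hapln1 call was lost without any 1 of 8 libraries, and that of the endothelial gene Erg (log2 fold change 0.80) without any 1 of 6. Of 4 tested mural cell genes, 1 was called, Tagln (log2 fold change 0.60 ± 0.117 (SE), adjusted p = 0.000318 by edgeR). With limma on means of pixel CPM, Kdr, Tek, Eng, Plvap, Erg, Hapln1 and Tagln kept their sign and lost their calls.

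The overlap of pixel sets was counted next. The 10% of tissue pixels with the highest level of each list were taken in each library and compared with the blood-rich pixels. For the endothelium list the lowest, median and highest share of blood-rich pixels was 14.4, 23.2 and 33.7%, above 10% in 11 of 11 libraries. For megakaryocyte genes it was 8.59, 16.1 and 30.7%, above 10% in 9. For connective tissue genes it was 3.27, 17.0 and 36.6%, above 10% in 7, and for macrophage genes 7.25, 12.0 and 29.3%, above 10% in 7. The summed connective tissue list was 1.08 to 2.55 times as high in blood-rich as in other tissue pixels at E10, 0.822 to 1.86 times at E11 and 0.548 times at E12, with 1 of its 10 tested genes called over all libraries. For neural progenitor genes the overlap was 0, 4.61 and 10.5%, and for neuron genes 0, 5.07 and 15%. For liver genes it was 1.55, 9.41 and 34.6%, with the highest value at E12. Where few pixels had a count of a list, its set held fewer than 10% of the tissue pixels. Most blood-rich pixels were in no endothelial set. The ranks rest on the list's counts in single pixels, and blood-rich pixels were shallower. In E11 25 µm replicate 1 the neuron overlap was 13.5%, while the summed neuron list was lower in blood-rich pixels (880 against 981 CPM). The overlaps are thus a description, and whether they differ from 10% was not tested.

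**Figure D3:**
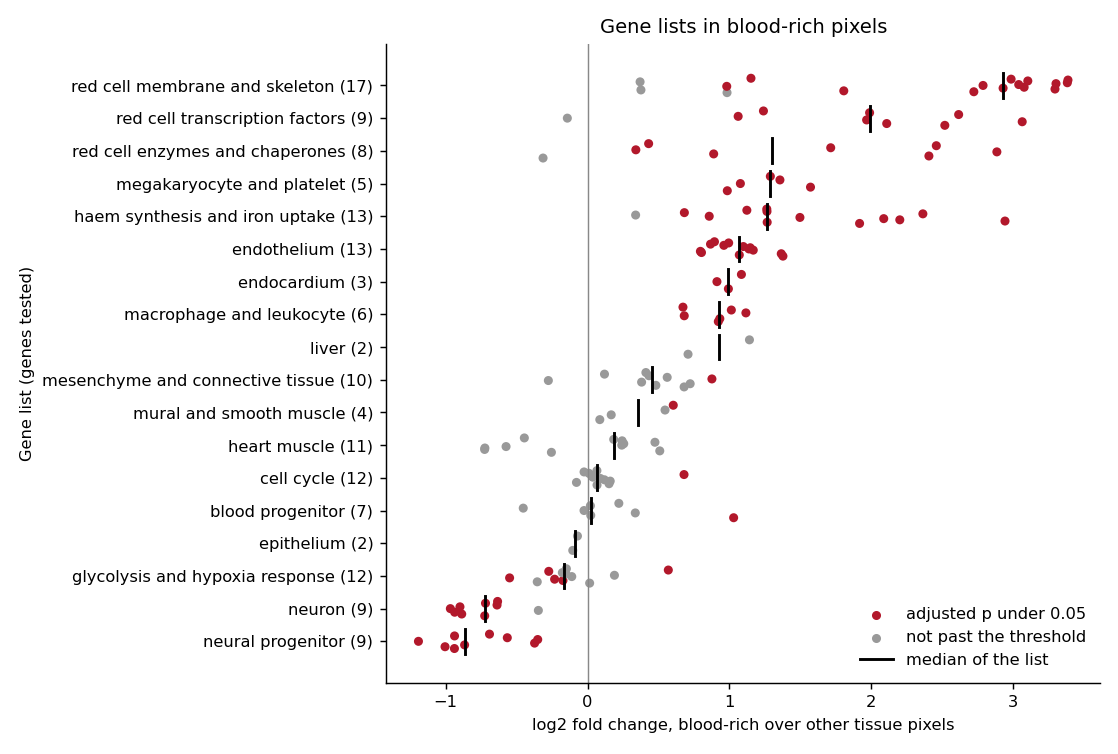
Log2 fold change between blood-rich and other tissue pixels (horizontal axis) of each tested gene of 18 lists, as points, red where the edgeR adjusted p is under 0.05, with a black bar at each list's median. The red cell membrane list (median 2.93) and transcription factor list (1.99) lie farthest to the right, the haem, red cell enzyme, megakaryocyte, vessel and macrophage lists between 0.93 and 1.30, and the neural lists to the left (medians -0.72 and -0.87).

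Taken over the 11 libraries, genes of the nervous system were lower in blood-rich pixels. Of 9 tested neural progenitor genes 9 were lower and 0 higher (median log2 fold change -0.87), and of 9 tested neuron genes 8 were lower and 0 higher (-0.72), against 5.23% of all genes tested. Pax6 had a lowest, median and highest level of 0, 55.6 and 122 CPM in blood-rich pixels and of 2.83, 138 and 255 CPM in other tissue pixels. Pax6, a transcription factor of neural and eye progenitors, fell (log2 fold change -1.19 ± 0.192 (SE), adjusted p = 0.000685 by edgeR), lower in 11 of 11 libraries. Fabp7, a fatty acid binding protein of radial glia, fell (log2 fold change -1.0 ± 0.104 (SE), adjusted p = 3.67e-09 by edgeR), and so did Sox2 (-0.94) and Hes5 (-0.87). Among neuron genes, Nefl, a neurofilament, changed by -0.97, Elavl4 by -0.94 and Tubb3 by -0.63 on the log2 scale. The summed neuron list was higher in blood-rich pixels of 2 of 11 libraries. These were E11 10 µm replicate 1 (1245 against 1127 CPM) and replicate 2 (464 against 457 CPM). The summed neural progenitor list was higher in 0 of 11. The largest drop of any named gene was in Wnt4, a secreted Wnt ligand, at 0, 10.3 and 73.9 CPM against 6.50, 32.3 and 197 CPM (log2 fold change -1.68 ± 0.171 (SE), adjusted p = 2.23e-09 by edgeR). The other 9 largest drops, Ptprz1, Hoxc4, Pax6, Fat3, Fez1, Nrcam, Bmpr1b, Nell2 and Tox2, ran from -1.20 (Ptprz1) to -1.05 (Tox2). Their levels differed so much between libraries that the classes overlapped for all 10 genes. Every library with a count had the lower value in blood-rich pixels, which the rule for naming the drops required.

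The test was next made between tissue pixels that touch a blood-rich pixel and tissue pixels that do not, with the blood-rich pixels left out. Some red cell and endothelial genes were higher beside the blood-rich pixels too. By edgeR, 85 of 11131 genes were higher (0.764%) and 53 lower (0.476%), 138 in all (1.24%), and 1219 had an unadjusted p under 0.05. The count was 71 without E11 25 µm replicate 2. Of the membrane and skeleton list 7 of 15 tested genes were higher and 0 lower, and of the endothelium list 6 of 13 and 0. In the haem list 2 of 13 tested genes were higher, in the transcription factor list 2 of 6, in the red cell enzyme list 2 of 6 and in the megakaryocyte list 2 of 5. In the macrophage (6 tested), endocardium (3) and mural cell (6) lists 0 genes were called by edgeR, with 5, 2 and 1 at an unadjusted p under 0.05. Car2 was at 77.8, 143 and 1112 CPM (lowest, median and highest) beside blood-rich pixels and at 23.0, 50.8 and 185 CPM farther away (log2 fold change 1.49 ± 0.184 (SE), adjusted p = 0.00360 by edgeR, higher in 11 of 11 libraries). For Sptb, Hemgn, Alas2 and Car2 the level fell from blood-rich to neighbouring to farther pixels in 11 of 11 libraries. Epb42 and Rhag were 2.80 and 2.83-fold higher beside blood-rich pixels, and Apoa2, an apolipoprotein gene of the liver, 3.04-fold (edgeR adjusted p = 0.0372, higher in 8 of 11 libraries), a call lost when any 1 of 9 libraries was left out. Of endothelial genes, Tek rose 1.78-fold, Tie1 1.57-fold and Cdh5 1.55-fold. Among the lower genes were the Wnt ligands Wnt4 (log2 fold change -1.12) and Wnt7a (-1.05), Moxd1 (-1.20), Hoxd4 (-1.04) and the axon guidance cue Ntn1 (-0.99).

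In the 4 E10 sections with antibody tags, the tags of 2 endothelial antibodies were higher in the blood-rich pixels, and those of other antibodies to endothelial proteins were not called. Tag values are per 10000 antibody counts, in the order 50 µm replicate 1, 50 µm replicate 3, 25 µm and 10 µm replicate 2. The panendothelial cell antigen was at 413, 241, 960.2 and 318 in blood-rich pixels and at 308, 185, 526 and 232 in other tissue pixels, higher in 4 of 4 sections (log2 fold change 0.52 ± 0.115 (SE), adjusted p = 0.000513 by edgeR). ESAM, an adhesion protein of endothelial junctions, was at 261, 628, 801 and 11.4 against 217, 574, 601 and 7.69, also higher in 4 of 4 (log2 fold change 0.33 ± 0.110 (SE), adjusted p = 0.0392 by edgeR). Its level in the 10 µm section was far below that in the other 3. These were the 2 antibodies of 22 that passed the test (9.09%), and 9 had an unadjusted p under 0.05. CD41, the protein of Itga2b, was at 218, 244, 833 and 223 against 179, 171, 337 and 158, higher in 4 of 4, and did not pass (log2 fold change 0.64 ± 0.199 (SE), adjusted p = 0.0658 by edgeR). The largest ratio was in the 25 µm section. The antibody to LY76, the red cell surface antigen also called TER-119, was at 311, 512, 555 and 454 against 288, 400.0, 528 and 398, higher in 4 of 4 and not called (log2 fold change 0.17 ± 0.118 (SE), adjusted p = 0.236 by edgeR). Esam, the transcript of the ESAM protein, rose 2.25-fold over the 11 libraries (log2 fold change 1.17 ± 0.181 (SE), adjusted p = 1.05e-05 by edgeR). KDR, whose transcript was called, had a tag log2 fold change of 0.11 (edgeR adjusted p = 0.449), and KIT one of -0.0435 (0.683). Of the other tags of proteins found on endothelium, ICAM2 had a log2 fold change of 0.18 (higher in 4 of 4 sections), EPCR one of -0.19 (lower in 4 of 4) and MAdCAM-1 one of -0.0926 (lower in 2 of 4), with edgeR adjusted p of 0.110, 0.111 and 0.487. The count of called antibodies was 4 without E10 50 µm replicate 1. ESAM lost its call without that section, without the 25 µm section and without the 10 µm section. It also lost it with members picked within depth classes and with the top 20% of pixels. The panendothelial antigen kept its call in each of these.

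**Figure D4:**
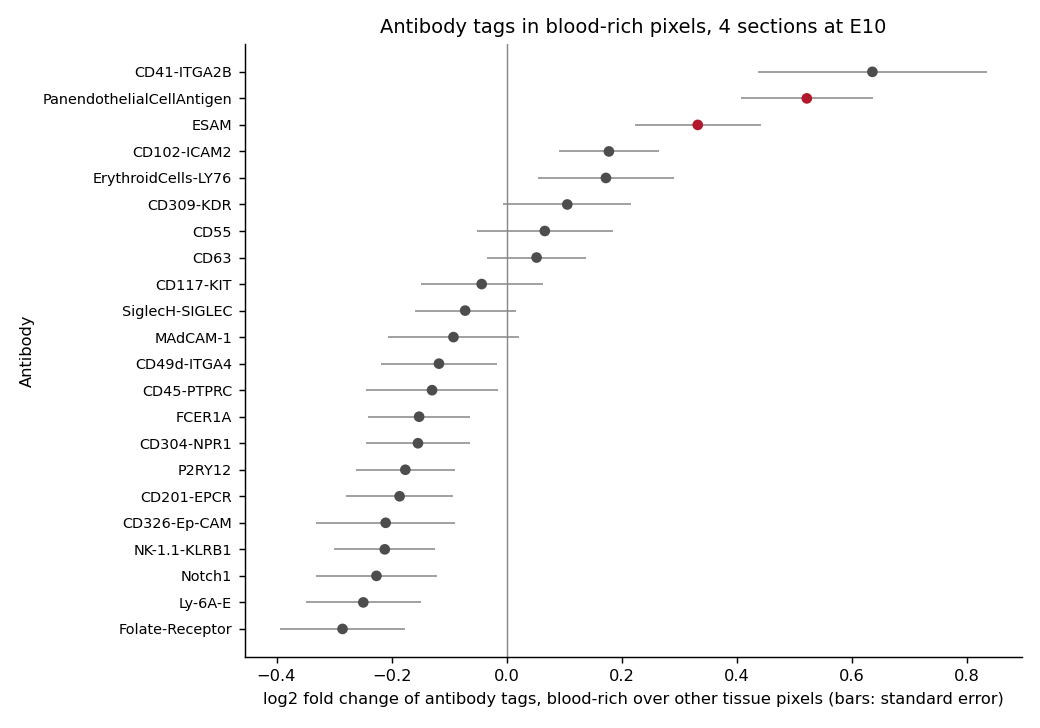
Log2 fold change of each of 22 antibody tags between blood-rich and other tissue pixels (points, red where the edgeR adjusted p is under 0.05), with the standard error as bars, over 4 sections at E10. CD41 (0.64), the panendothelial antigen (0.52) and ESAM (0.33) lie farthest to the right.

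Whether the blood-rich effect differed between E11 and E10 was tested as the difference of the 2 log2 fold changes. Heart muscle genes were among the called genes: their summed level was lower in blood-rich than in other tissue pixels in 6 of 6 libraries at E10 and higher in 4 of 4 at E11. By edgeR, 20 of 10391 genes had a larger effect at E11 (0.192%) and 4 a smaller one (0.0385%), 24 in all (0.231%), and 651 had an unadjusted p under 0.05. Of 11 tested heart muscle genes 5 were among the 20, with a list median of 2.08 for the difference against -0.0291 over all genes tested. Myh6, a myosin heavy chain of heart muscle, was at 6.81, 10.5, 9.5, 74.9, 97.3 and 0 CPM in the blood-rich pixels of the 6 E10 libraries (50 µm replicates 1 to 3, 25 µm, and 10 µm replicates 1 and 2, in this order) and at 21.7, 73.6, 52.5, 166, 209 and 0.212 CPM in their other pixels. At E11 (25 µm and then 10 µm, replicates 1 and 2 of each) it was at 930.1, 692, 25.8 and 1518 CPM against 289, 195, 5.16 and 954 CPM. The values of 0 and 0.212 CPM in E10 10 µm replicate 2 are too near 0 to show a direction. The 25.8 CPM of E11 10 µm replicate 1 comes from 193595 non-globin counts, so from few reads. With these limits, Myh6 was lower in blood-rich pixels of 6 of 6 E10 libraries and higher in 4 of 4 at E11 (difference 2.97, standard error 0.390, edgeR adjusted p = 0.0143). The myosin light chain Myl7 (difference 2.55), the natriuretic peptide gene Nppa (2.64), Ryr2 (2.08), Myl3 (1.56) and, outside the list, the troponin gene Tnnc1 (2.32) were called in the same direction. The other 6 tested heart genes did not pass edgeR's test: Ttn (2.29, adjusted p = 0.0633), Tnni3 (2.10, 0.0744), Actc1 (1.99, 0.0596), Myh7 (1.26, 0.667), Tnnt2 (1.24, 0.613) and Myl2 (0.91, 0.883). Nppa had no count in the blood-rich pixels of 5 of 6 E10 libraries, so its fitted difference is no bound.

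The summed heart list gave the same order. Its level in blood-rich over other tissue pixels was 0.230 to 0.631 in the 6 E10 libraries, 1.33 to 3.40 in the 4 E11 libraries and 1.85 at E12. The level in all tissue pixels outside the blood-rich ones ran from 23.8 CPM in E10 10 µm replicate 2 to 6083 CPM in E11 10 µm replicate 2, so the sections differed widely in heart transcripts. In that E10 library the blood-rich level was 10.7 CPM, so its ratio rests on few reads. Over all 11 libraries 0 of 11 heart genes were called higher or lower in blood-rich pixels (by edgeR, and 2 had an unadjusted p under 0.05).

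**Figure D5:**
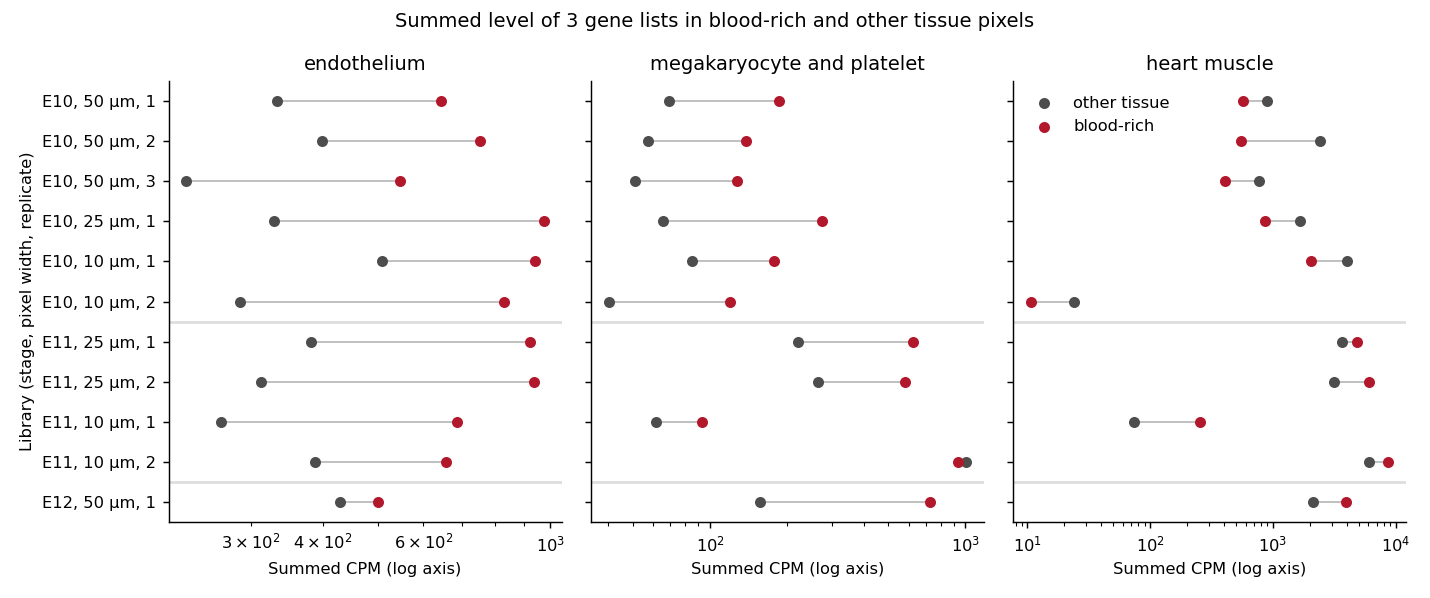
Summed CPM (log axis) of the endothelium, megakaryocyte and heart muscle lists in blood-rich (red) and other tissue pixels (grey) of each of 11 libraries, with a thin line joining the classes of a library and wide grey lines between stages. Red lies to the right for endothelium in 11 of 11 libraries, and for heart muscle to the left in the 6 E10 libraries and to the right in the 4 E11 libraries and at E12.

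The red cell membrane gene Epb42 also had a larger effect at E11. It was at 47.0, 24.6, 25.8 and 82.2 CPM in blood-rich pixels of the 4 E11 libraries and at 1.93, 0.426, 0.430 and 2.02 CPM in their other pixels. At E10 its level outside blood-rich pixels was 3.83, 6.36, 4.37, 19.1, 11.0 and 7.00 CPM (difference 2.31, standard error 0.506, edgeR adjusted p = 0.0235). The Epb42 level outside blood-rich pixels was lower in each of the 4 E11 libraries than in each of the 6 at E10. These E11 levels, from sums of 2324708 to 7035646 non-globin counts, rest on few reads, so the size of the fitted difference is uncertain. The 25.8 CPM in blood-rich pixels, from 193595 non-globin counts, rests on few reads too. The smooth muscle actin Acta2 had a larger effect at E11 (difference 1.48). The 4 genes with a smaller effect at E11 were Sox2 (-1.58) and the matrix genes Col11a1 (-1.48), Col2a1 (-0.94) and Fbln1 (-0.74). The count of 24 was 5 with members picked within depth classes, 7 with the top 20% of pixels, 7 with a tissue threshold of 0.2, and, with 1 library left out, 15 (replicate 2 of E10 50 µm), 12 (replicate 2 of E11 25 µm) and 39 (replicate 1 of E10 10 µm). With members picked within depth classes Myh6, Nppa, Myl7, Tnnc1, Epb42, Sox2, Col11a1 and Fbln1 kept their sign and were no longer called, which leaves Col2a1 of the 9 genes named by rule. With the top 20% of pixels or a tissue threshold of 0.2, Myh6, Myl7, Nppa and Epb42 were not called and Tnnc1 was. Myh6 also lost its call without the E10 25 µm library, Myl7 without E10 50 µm replicate 2, Nppa without any 1 of 6 libraries and Epb42 without any 1 of 5.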

How the data were processed

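Per the labels, transcript and antibody counts came from sections barcoded in situ through crossed channels and sequenced, and the authors deposited 1 table of raw counts per pixel for each library. The submitters' processing notes name CASAVA 1.8.2 and GRCh38, a human build, while the gene symbols are mouse; the aligner and the treatment of molecular identifiers are not given in the sources used here. Members and gene lists were chosen with earlier results of these data known. Counts were summed per library and pixel class without globin genes, and tested with edgeR 4.0.16 (quasi-likelihood, TMM, library as a term, low counts filtered) in R 4.3.3. Both class sums of a library come from 1 section, which pairs them. limma 3.58.1 and DESeq2 1.42.0 served as alternatives, and sums used Python 3.11.15, numpy 2.4.6 and scipy 1.17.1. Genes named were called genes with at least 100 counts and 1 sign in every library (15 largest rises, 10 largest drops), called list genes, and up to 5 a direction in the other tests; all others were chosen after their values were seen. In simulated counts for the main test, 82% of 1.5-fold and 100% of 2-fold changes were recovered, and for the stage difference 52% of 2-fold changes. Antibody counts were tested alike. Ahsp was not analysed here, and some genes counted in the lists are not reported by name.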

Additional observations from a re-analysis of the deposited data

Results flagged for a closer look

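For 24 genes the difference between blood-rich and other tissue pixels was not the same at E11 as at E10, by a test of the difference itself in edgeR. The named ones with a larger log2 fold change at E11 were Myh6 (by 2.97), Nppa (2.64), Myl7 (2.55), Tnnc1 (2.32) and Epb42 (2.31). Those with a smaller one were Sox2 (-1.58), Col11a1 (-1.48), Col2a1 (-0.94) and Fbln1 (-0.74). Stage cannot be told apart from section plane or embryo in these libraries, and pixel width was only partly matched between stages. No group held 4 libraries of 1 stage and width, so single libraries could not be compared with their own group.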

How the results depend on the processing

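The count of 1188 genes for blood-rich against other tissue pixels stayed within 1.5 times under RLE size factors, DESeq2, other shares and tissue thresholds, depth-stratified members and each library left out (947 to 1266). It was 3386 with no filter on low counts (617 higher, 2769 lower) and 482 with limma on means of pixel CPM, where the macrophage gene Fcer1g, blood-rich against other tissue pixels, had a log2 fold change of -0.0747. Pixel classes of 1 library are paired, and with no replicate block (no library term) the count was 118, all higher. The cause of these shifts was not tested. The stage count of 24 was 50 with no filter, 7 with the top 20% of pixels, 7 with a tissue threshold of 0.2, 5 with depth-stratified members and 12 to 39 with 1 library left out. The neighbour count of 138 was 706 with no filter, 272 with the top 5% and 71 to 204 with 1 library left out. The antibody count of 2 was 7 with RLE size factors, 5 with total counts only, 6 with the top 5%, and 2 to 4 with 1 section left out. Of the values of named genes over all alternatives, 2012 of 2209 for blood-rich pixels kept their sign and call, 111 of 170 for the stage difference, 156 of 169 for neighbours and 13 of 18 for antibodies. The 3 composition measures kept their sign and call in each alternative run. Depth limits the marker lists: 5 of 12 megakaryocyte, 6 of 14 macrophage and 2 of 12 liver genes had enough counts to be tested, and E12 has 1 library with no test of its own.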

Other observations

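Of the 15 largest rises in blood-rich pixels, 3 genes were in none of the lists. Pkhd1l1, a large membrane protein gene, was at 9.67 to 110.3 CPM in blood-rich pixels against 0.860 to 10.8 CPM elsewhere (log2 fold change 3.52 ± 0.210 (SE), adjusted p = 2.3e-15 by edgeR) and had the largest rise of all named genes. Pdzk1ip1, which lies beside Tal1 in the genome, was at 5.17 to 125 CPM against 2.13 to 12.8 CPM (log2 fold change 3.22 ± 0.213 (SE), adjusted p = 1.87e-13 by edgeR). Hsd3b6, a steroid dehydrogenase gene, was at 10.3 to 125 CPM against 1.71 to 26.3 CPM (log2 fold change 2.87 ± 0.197 (SE), adjusted p = 8.01e-14 by edgeR). All 3 were higher in 11 of 11 libraries, which the rule for naming the largest rises required.

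Of 12 cell cycle genes 1 was called, Mki67, at 733, 1259 and 1932 CPM (lowest, median and highest) in blood-rich pixels against 550.0, 836 and 1059 CPM and higher in 11 of 11 libraries (log2 fold change 0.68 ± 0.115 (SE), adjusted p = 0.00274 by edgeR), while the list's median was 0.0667. Among 12 tested genes of glycolysis and the hypoxia response, Hk2 (-0.55), Pkm (-0.27), Gapdh (-0.23) and Eno1 (-0.17) were lower and the glucose transporter Slc2a3 (0.57) was higher, with a list median of -0.16. The Slc2a3 call was lost without any 1 of 8 libraries. Of 10 connective tissue genes 1 was called higher, Lum (log2 fold change 0.88 ± 0.236 (SE), adjusted p = 0.0247 by edgeR), and its call was lost without any 1 of 5 libraries. Of 2 tested liver genes 0 were called by edgeR, and both had an unadjusted p under 0.05. The antibody tag lowest in blood-rich pixels was the folate receptor (log2 fold change -0.29 ± 0.108 (SE), adjusted p = 0.0658 by edgeR), lower in 4 of 4 sections and not called.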
